A study of Mus musculus with 62 samples.

Results

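The long-RNA transcriptome of the mouse cell line HT-22 was set against that of whole mouse hippocampus. The aim was to describe which neuronal, glial and proliferation genes the line keeps, lacks or gains. The comparison used 12 of the 62 libraries of the series, of which 31 hold long RNA. The line was represented by 4 libraries, from cells at passage 4, grown in DMEM with calf serum, that had received a scramble locked nucleic acid (LNA) for 24 h, at 50 uM as the labels give it, and then 30 uM of the peptide named reverse 42-1, dissolved in DMSO. All 4 carried that treatment, so no untreated HT-22 cells entered the comparison. The tissue was represented by 8 libraries from wild-type C57BL/6J mice, with left and right hippocampus pooled for each mouse. There were 2 mice aged 3 months, 3 aged 6 months and 3 aged 12 months. The line is a single line, so its 4 libraries describe the spread between cultures of it and not between lines. Cells in culture and tissue also differed in the LNA, the peptide and the medium, and the parts of these in any difference cannot be told apart. The sources used here do not say whether the 2 kinds of library were prepared together.

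As background, the hippocampus holds excitatory pyramidal and granule neurons, inhibitory interneurons, astrocytes, oligodendrocytes and their precursors, microglia, vessels and some adjoining choroid plexus. Its neurons are postmitotic and carry the machinery of the synapse. HT-22 is described as a line from mouse hippocampal neurons, immortalised with a viral large T antigen, a protein that binds Rb and p53. Its descent was not tested here. The line divides in serum. It is used for oxidative glutamate toxicity, in which glutamate outside the cell blocks the cystine-glutamate exchanger and glutathione runs out, with no part played by glutamate receptors.

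Levels are given in TPM, the length-corrected share of a gene among all transcripts of a library, scaled to the same sum in each library and added up per gene, as the mean ± SD over the 4 HT-22 or the 8 WT libraries. Differences are HT-22 minus WT in log2(TPM + 1), with the 3 ages of WT weighted equally. Genes on the X and Y chromosomes were left out. The remaining genes entered the test where the average of the mean levels in the line and in the tissue was at least 1 TPM, and 18768 genes did so. A gene is called higher or lower where limma's test against a log2 difference of 1 gave an adjusted p below 0.05. It is called kept where both means were at least 1 TPM and the 95% confidence interval lay within -1 to 1. It is called lacked where the WT mean was at least 1 TPM and all 4 HT-22 libraries were below 0.1 TPM, and gained in the converse case. These last calls are levels with no test. Of the tested genes, 5623 (30.0%) were higher, 3329 (17.7%) were lower, 3521 (18.8%) were kept, 2127 (11.3%) were lacked and 286 (1.52%) were gained. The libraries of the 2 groups did not overlap for 12567 genes (67.0%). Counts for each gene list below are to be read beside these shares. A gene that reached the level for the test through 1 group only had to differ, so the list counts are a description. Of the tested genes, 23 of 33 pan-neuronal genes had an HT-22 mean below 1 TPM, and 12 of 30 replication and 26 of 34 mitosis genes a WT mean below 1 TPM.

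The composition of the RNA differed between line and tissue. Protein-coding genes held 48.1 to 55.7% of the TPM in HT-22 and 26.6 to 45.0% in WT, and the mitochondrial genome held 13.8 to 30.0% and 24.9 to 42.7%. The median difference over all tested genes was 0.80. It was 0.19 after each library was rescaled to its protein-coding genes and -0.14 after median-of-ratios or TMM scaling. The share of called genes that were higher was 62.8% as deposited, 42.9% with protein-coding scaling, 33.0% with median of ratios, 32.7% with TMM and 47.7% with quantile normalisation. Scaling also changed how many genes reached the level for the test. With protein-coding scaling 22953 genes did so, of which 17.4% were higher, 23.1% lower and 22.4% kept. Over the 18768 genes alone, that scaling gave 3833 higher, 4043 lower and a median difference of 0.33. With median of ratios 18113 genes were tested, and 12.4%, 25.2% and 32.5% were higher, lower and kept. Calls of genes close to the threshold, those of kept genes among them, can be lost under these scalings. Of 20787 protein-coding genes off the X and Y chromosomes, 9666 had a mean of at least 1 TPM in both groups, 1086 in HT-22 only and 2601 in WT only. Read totals are not given in the files. The ratio of the coverage and FPKM columns, which grows with the number of mapped reads, was 1.42 to 2.66 in WT and 0.810, 0.919, 1.21 and 2.60 in the HT-22 libraries. The 4 HT-22 libraries correlated with one another at 0.943 to 0.975 over genes and with the WT libraries at 0.418 to 0.477, as a description of log2(TPM + 1).

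HT-22 replicate 4 stood apart from the other 3 cultures. In it, 80 genes with at least 10 TPM lay at least 4 times above the highest of the other 3 libraries, against 8, 8 and 11 genes for replicates 1 to 3. They include serum- and stress-responsive genes. Cyr61, a matrix-associated target of YAP, had 2296 TPM there and 139 to 168 in the others. Hmox1, haem oxygenase, had 377 and 55.3 to 61.8 TPM. Over all genes, the test without it called 5779 higher (30.6%) and 3302 lower (17.5%).

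The label was first checked against defining markers. The tissue carried those of all its cell types. Of the neuronal ones, Rbfox3, Snap25, Syt1 and Map2 were listed at 0 in the line. Tubb3 was present but far under the tissue, with a mean of 3.90 TPM against 78.8 TPM. Rbfox3 (NeuN), the nuclear antigen of mature neurons (ENSMUSG00000025576, chr11:118489762-118911597 on GRCm38), was listed at 0 in each of the 4 HT-22 libraries and had a lowest, median and highest WT level of 35.7, 56.5 and 101 TPM. Snap25, the neuronal membrane SNARE (ENSMUSG00000027273, chr2:136713453-136782428), was listed at 0 in all 4 and had 494, 711 and 951 TPM in WT. Map2, the dendritic microtubule protein, was also listed at 0 in all 4 and had 173, 229 and 315 TPM in WT. For these genes the 2 groups do not approach each other, and no fold can be given. Of 2483 protein-coding genes with a mean of at least 20 TPM in both groups, 1 was at 0 in any of the 12 libraries, and no housekeeping gene was. A gene at 0 in all 4 HT-22 libraries could not be among those 2483. That count therefore cannot show whether such zeros are true absence. Of 3604 with that mean in WT, 442 were at 0 in all 4 HT-22 libraries and 161 in some of them. Because the neuronal markers were at 0 or far under the tissue, HT-22 is called here only by the name of the line, with no cell type. In these bulk samples, fewer cells of a type and less RNA per cell cannot be told apart.

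**Figure D1:**
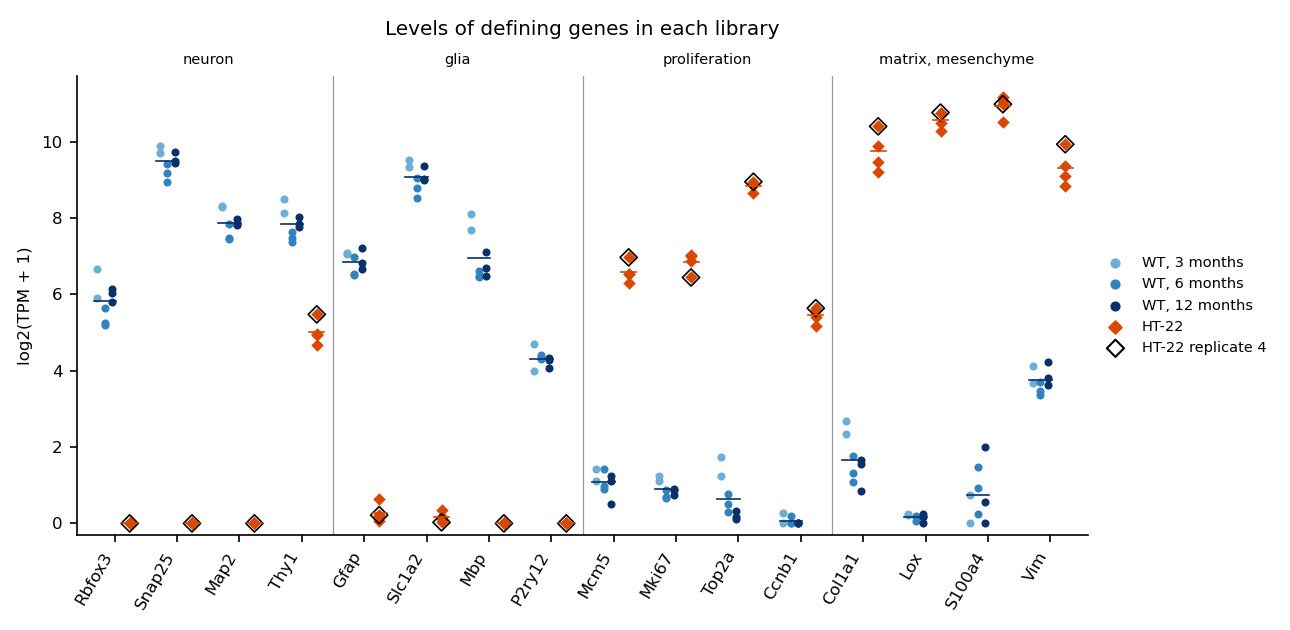
Levels of 16 defining genes in every library on the scale log2(TPM + 1), with circles for WT libraries by age, diamonds for HT-22, an outlined diamond for HT-22 replicate 4 and lines for the means. Rbfox3, Snap25, Map2, Mbp and P2ry12 lie at 0 in all 4 HT-22 libraries, and the proliferation and matrix genes lie above every WT library.

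Of 33 tested pan-neuronal genes, 31 were lower in HT-22, none was higher and none was kept, with a median difference of -5.88. HT-22 lacked 15 of them. Their summed level was 137 to 188 TPM in the HT-22 libraries and 4059 to 8060 TPM in WT. The neurofilaments Nefl, Nefm and Ina, the ubiquitin hydrolase Uchl1, the growth cone protein Gap43, the granins Chga, Chgb and Scg2 and the calcium sensor Vsnl1 were all listed at 0 in the 4 HT-22 libraries. Their WT means ran from 35.0 TPM for Nefm to 202 TPM for Vsnl1. Because these are zeros, the size of their log2 difference depends on the pseudocount.

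Some neuronal genes were lower but present. Thy1, a surface glycoprotein of neurons and of fibroblasts, had 29.4, 30.4, 24.6 and 43.4 TPM in HT-22 replicates 1 to 4 and 164, 222 and 362 TPM as the lowest, median and highest in WT. All 4 HT-22 libraries lay below every WT library, and the difference was -2.88 (SE 0.15, adjusted p = 4.1e-08). Map1b, a microtubule protein of growing axons, had 26.3 ± 4.95 TPM against 214 ± 63.0, a difference of -3.004 (SE 0.13). Nsg1, an endosomal protein of neurons, had 22.2 ± 4.05 against 74.6 ± 18.1 TPM, a difference of -1.73 (SE 0.13). Tubb3, the neuronal beta tubulin used as a stain for young neurons, was at 2.102, 2.43, 3.92 and 7.16 TPM in HT-22 and between 55.5 and 126 TPM in WT. It remained detectable in each culture at a level far under the tissue, with a difference of -4.14 (SE 0.23, adjusted p = 1.9e-08). The 2 tested members without a call were the RNA-binding protein Elavl2, with 10.1 ± 1.49 TPM in HT-22 and 25.2 ± 4.90 in WT, and the adhesion molecule Ncam1, with 35.9 ± 6.43 and 79.4 ± 23.0. Both gave negative differences, -1.23 and -1.14, and both were called lower under protein-coding and median-of-ratios scaling.

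**Figure D2:**
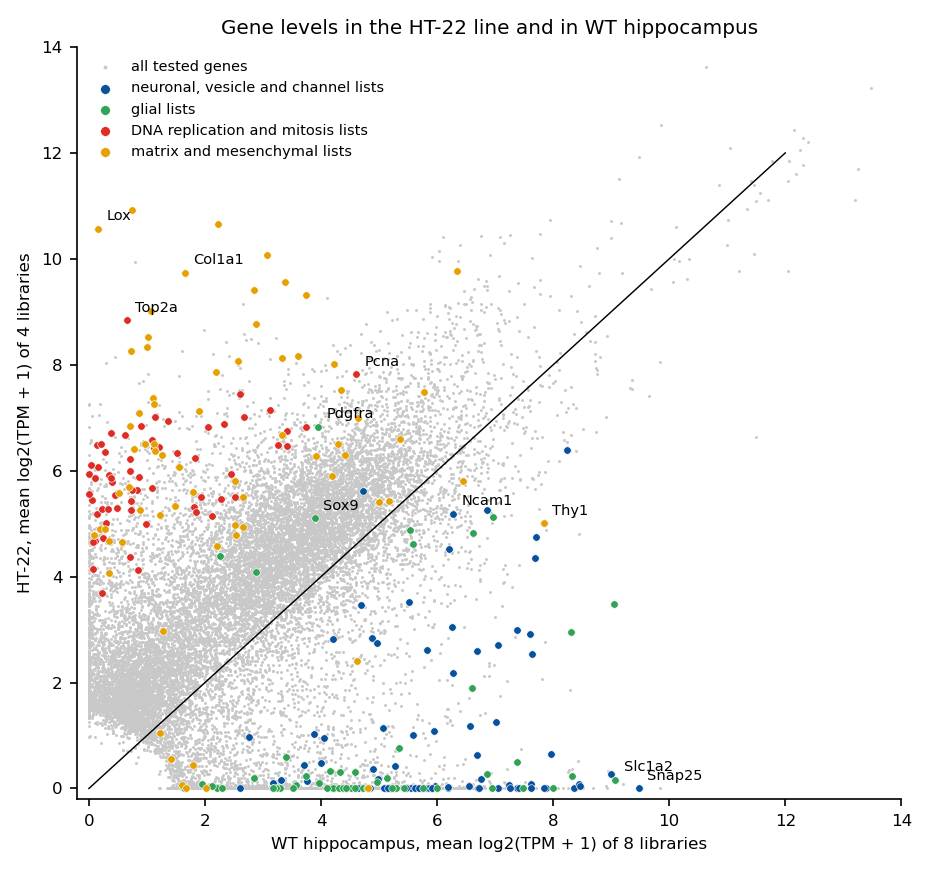
Mean log2(TPM + 1) of each of 18768 tested genes in the 8 WT libraries (horizontal) and the 4 HT-22 libraries (vertical), with the line of equality and gene lists in colour. Neuronal and glial genes gather along the lower edge, and replication, mitosis and matrix genes along the upper left, with Ncam1 and Thy1 among the few neuronal genes near the middle.

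Genes of the presynaptic terminal were lower as well. Of 26 tested members of the vesicle and release list, 24 were lower, none was higher and 10 were lacked, with a median of -5.48. The calcium sensor of release Syt1, complexin Cplx1, and the active-zone proteins Rims1 and Pclo were listed at 0 in all 4 HT-22 libraries. Vamp2, the vesicle SNARE, was the most abundant member left, at 82.8, 78.3, 91.7 and 79.8 TPM in replicates 1 to 4 against 201, 292 and 524 TPM in WT. All 4 values lay below the lowest WT value, with a difference of -1.92 (SE 0.14, adjusted p = 2.8e-05). Sypl, a ubiquitous relative of synaptophysin, had 48.2 ± 2.84 and 25.6 ± 3.37 TPM and was not called.

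All 30 tested voltage-gated channel genes were lower, 17 of them lacked, with a median of -4.59. The axonal sodium channel Scn1a and Scn8a, the potassium channels Kcna1 and Kcnd2 and the calcium channel Cacna1e were listed at 0 in the line. The highest HT-22 level in the list was that of Cacna1a, the pore of P/Q-type calcium channels, with 10.9 ± 3.51 TPM against 47.0 ± 16.4 in WT, a difference of -2.06 (SE 0.23). Cacna1c, the L-type pore, followed with 6.14 ± 1.28 against 18.2 ± 5.85 TPM.

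Receptors for glutamate, GABA and acetylcholine were lower too. Of 16 tested ionotropic glutamate receptor genes, 15 were lower and 10 were lacked, among them the AMPA receptor subunits Gria1, Gria2 and Gria4 and the NMDA receptor subunits Grin1, Grin2a and Grin2b, each listed at 0 in all 4 HT-22 libraries. WT levels of the obligate NMDA subunit Grin1 were 61.0, 83.5 and 149.7 TPM as the lowest, median and highest. Grin2d was kept, at a low level of 1.91 ± 0.862 TPM in HT-22 and 2.68 ± 0.938 in WT. With protein-coding or median-of-ratios scaling no gene of this list was kept. Grik2, a kainate receptor subunit, was lower but present, at 2.45, 6.22, 2.19 and 3.65 TPM in replicates 1 to 4 against 28.9 ± 3.50 TPM in WT. Of 20 metabotropic receptor and scaffold genes, 19 were lower (18 without replicate 4). Grm5 was listed at 0 and had 107 ± 22.7 TPM in WT. The scaffold Dlg4 (PSD-95) was present at 34.6 ± 3.94 TPM, against 148 ± 48.6 in WT, a difference of -2.08 (SE 0.13, adjusted p = 3.3e-06). Of 23 tested GABA synapse genes, 21 were lower (20 without replicate 4) and 18 were lacked, including the GABA-synthesising enzyme Gad1 and the vesicular transporter Slc32a1. The receptor anchor Gphn, which also makes the molybdenum cofactor in other cells, was kept with 15.9 ± 2.86 and 21.6 ± 2.77 TPM. With protein-coding scaling no gene of the GABA list was kept. Of 11 tested cholinergic genes, 10 were lower. Chat, the acetylcholine-synthesising enzyme, did not reach the level needed for the test. The muscarinic receptor Chrm1 had 0.0138 ± 0.0277 TPM against 32.9 ± 9.54.

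Genes of forebrain and hippocampal identity, transcription factors among them, were divided. Of 32 tested members, 20 were lower, 2 higher, 2 kept and 8 not called, and 16 were lacked. The granule cell factor Prox1, the pyramidal cell factors Neurod2 and Neurod6, the cortical factors Bcl11a, Bcl11b and Fezf2 and the patterning factor Lhx2 were listed at 0 in the line. Neurod6 had 57.1, 67.0 and 105 TPM as its lowest, median and highest WT level. Emx2, which patterns the medial cortex and hippocampus, was kept at 6.26 ± 0.805 and 6.70 ± 2.19 TPM with a confidence interval of -0.39 to 0.18. Nr2f2, a nuclear receptor of caudal and mesenchymal tissue, was higher at 65.1 ± 12.5 against 10.5 ± 2.69 TPM, a difference of 2.51 (SE 0.19, adjusted p = 6.1e-06), and so was the nuclear factor Nfib at 157 ± 11.8 against 52.4 ± 13.3 TPM (1.55 (SE 0.12)). Nfib was the member whose call was lost under both other scalings.

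Of 12 tested genes of glutamate transport and metabolism, 6 were lower, 2 higher, 3 kept and 1 not called, with a median of -0.92. Slc1a2 (GLT-1), the main astrocytic glutamate transporter, had 0.0926, 0.273, 0.121 and 0.0200 TPM in HT-22 replicates 1 to 4 and 364, 524 and 738 TPM in WT, with no overlap and a difference of -8.94 (SE 0.13, adjusted p = 9.5e-15). Slc1a1 (EAAC1), the neuronal transporter that also takes up cysteine, was listed at 0 in all 4 HT-22 libraries and had 40.1 ± 9.43 TPM in WT. Slc1a3 (GLAST) was lower but present, with 41.0, 41.8, 50.5 and 15.1 TPM in replicates 1 to 4, lowest in replicate 4, against 125 ± 20.98 in WT; its difference was -1.87 with all 4 libraries and -1.50 without replicate 4. The neutral amino acid transporter Slc1a5 (ASCT2), a glutamine carrier of dividing cells, had 69.6, 75.6, 85.7 and 123 TPM against 0.130, 0.440 and 0.946 in WT. Every culture was far above every mouse, with a difference of 5.90 (SE 0.17, adjusted p = 8e-12). Slc38a2, a glutamine carrier induced by amino acid shortage, was higher at 399 ± 21.2 against 33.4 ± 12.8 TPM. Glul, which makes glutamine from glutamate in astrocytes, was lower at 10.3 ± 1.98 against 538 ± 122 TPM, while glutamate dehydrogenase Glud1 was kept, at 73.4 TPM against 69.2. The vesicular transporter Slc17a7 was at 0.276 ± 0.198 against 321 ± 105 TPM.

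The cystine and glutathione pathway, on which the line's use as a model rests, had more genes higher than lower, as did the housekeeping genes. Of 25 tested genes, 15 were higher, 2 lower, 3 kept and 5 not called, with a median of 1.65 (14 higher and a median of 1.34 without replicate 4, and 10 higher with protein-coding scaling, 9 with median of ratios). Of 16 housekeeping genes 11 were higher, with a median of 1.93. With protein-coding and median-of-ratios scaling the medians were 1.05 and 0.62 for the pathway and 1.36 and 0.91 for housekeeping genes. The shift of the list as a whole was thus no larger than theirs. The 2 subunits of the cystine-glutamate exchanger differed in direction. Its transport subunit Slc7a11 (xCT) had 3.05, 2.72, 3.15 and 7.66 TPM in replicates 1 to 4 and 10.6, 15.4 and 18.3 TPM in WT. All 4 cultures were below all 8 mice, with a difference of -1.75 (SE 0.21, adjusted p = 0.005). Its partner Slc3a2 (4F2hc), which also serves other transporters, had 99.7, 99.9, 116 and 323 TPM against 27.4, 39.0 and 74.6. The groups did not overlap, but the call rests on replicate 4: the difference was 1.67 (SE 0.28, adjusted p = 0.038) with it and 1.26, not called, without it. The call was also lost without any 1 of 5 WT mice, with differences up to 1.65. Of the enzymes that build and recycle glutathione, Gclc had 45.4 ± 12.9 against 15 ± 3.14 TPM and Gsr 38.2 ± 6.15 against 10.2 ± 2.64 TPM, and both were higher. Gss and the phospholipid peroxidase Gpx4 were not called, with differences of 1.01 and 0.92. Targets of the redox factor Nfe2l2 were the members furthest above the tissue. Nqo1, the quinone reductase, had 46.4, 39.1, 54.2 and 148 TPM against 2.38, 2.86 and 4.27 TPM. Txnrd1, thioredoxin reductase, had 133, 119.6, 144 and 368 TPM against 10.7, 15.02 and 22.8 TPM. Hmox1 had 61.8, 57.5, 55.3 and 377 TPM against 1.73, 2.28 and 3.79 TPM. Replicate 4 was the highest culture for all 3, and all 4 cultures lay above all mice. Without it the differences were 3.56, 3.00 and 4.01, in place of 3.97, 3.36 and 4.68. Nfe2l2 itself had 64.7 ± 27.3 against 7.15 ± 1.27 TPM. Chac1, which breaks glutathione down, was higher as well, at 14.7, 14.9, 17.4 and 99.1 TPM in replicates 1 to 4 against 2.01 ± 0.608 TPM. Ferritin heavy chain Fth1 was kept at 1555 and 1139 TPM. The lipoxygenases Alox5, Alox12 and Alox15 did not reach the level for the test, and Alox12b was listed at 0 in HT-22 with 2.24 ± 0.726 TPM in WT.

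**Figure D3:**
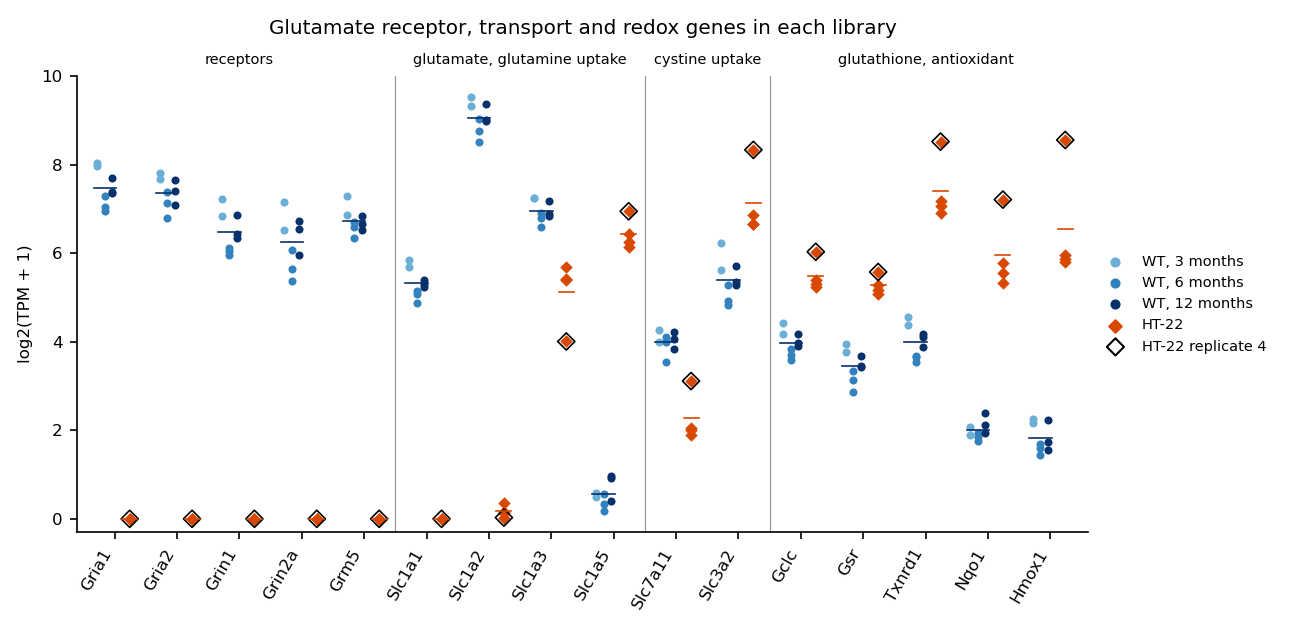
Levels of 16 glutamate receptor, transporter and redox genes in every library on the scale log2(TPM + 1), with circles for WT by age, diamonds for HT-22, an outlined diamond for HT-22 replicate 4 and lines for the means. The receptors lie at 0 in HT-22, Slc7a11 lies below and Slc1a5, Nqo1 and Hmox1 above all WT libraries, and replicate 4 is the highest culture for the redox genes shown.

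Glial markers were nearly all lower. Of 20 tested astrocyte genes, 18 were lower, with a median of -4.91 and a summed level of 119 to 209 TPM in HT-22 against 2248 to 3683 TPM in WT. The water channel Aqp4 and the connexin Gjb6 were listed at 0 in the line, and the filament protein Gfap had 0.548, 0.0506, 0.137 and 0.162 TPM in replicates 1 to 4 against 89.6, 118 and 147 TPM in WT. Gja1, a connexin of astrocytes and fibroblasts, was lower at 16.8, 23.9, 21.5 and 63.5 TPM, highest in replicate 4, against 99.2 ± 21.5 TPM. Sox9, a factor of astrocytes and of cartilage and other mesenchyme, had 23.95, 27.4, 27.5 and 69.1 TPM against 13.99 ± 1.74 and was not called (difference 1.21, adjusted p = 0.34). Of 17 tested oligodendrocyte lineage genes, 15 were lower and 12 were lacked, with the myelin genes Mbp, Mag and Mobp and the factors Olig1 and Olig2 listed at 0. Pdgfra, the receptor that marks oligodendrocyte precursors and also fibroblasts, was the exception. It had 106, 127, 151 and 80.3 TPM in the cultures and 12.3, 13.2 and 20.8 TPM in WT. Every culture was above every mouse, with a difference of 2.85 (SE 0.16, adjusted p = 9.1e-08). Cspg4 (NG2), a proteoglycan of the same precursors and of pericytes, was also higher at 21.4 ± 9.66 against 3.96 ± 1.41 TPM; its call was lost with median-of-ratios scaling. Of 16 tested microglia genes, 14 were lower and none higher. P2ry12, C1qa, C1qb, C1qc and Tyrobp were listed at 0 in HT-22, and Tmem119, which bone-forming cells also express, had 11.2, 6.6, 15.04 and 56.3 TPM against 6.49 ± 1.36 and was not called.

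Markers of other cells in the dissected tissue were mostly lower too. Of 10 tested choroid plexus and ependymal genes, 9 were lower. The transthyretin gene Ttr was listed at 0 in HT-22 and varied between mice from 342 to 1516 TPM. The water channel Aqp1, which fibroblasts and endothelium also carry, was higher at 63.0 ± 30.1 against 4.02 ± 1.99 TPM. All 4 tested haemoglobin genes were lower, with a summed level of at most 0.832 TPM in HT-22 and at least 78.5 TPM in WT. Haemoglobin genes have near-identical copies, so single members are uncertain. Of 9 tested vascular genes, 5 were lower and 3 higher (13 and 3 with protein-coding scaling, under which more genes entered the test, and 7 and 1 with median of ratios). The higher ones were Pdgfrb, a receptor of pericytes and fibroblasts, with 41.2 ± 6.97 against 3.25 ± 0.871 TPM, the glucose transporter Slc2a1, and Ly6c1, whose near-identical neighbours make its value uncertain. Cldn5, the tight-junction protein of brain endothelium, was at 0.238 ± 0.190 against 2.47 ± 0.265 TPM. Of 12 markers of epithelium, muscle and liver, 1 reached the level for the test, the keratin Krt18, and it was listed at 0 in HT-22 and at 2.45 ± 1.09 TPM in WT. It was lower, with a difference of -1.72, or -1.63 and no call without replicate 1 of the WT mice of 3 months.

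Every tested gene of DNA replication and of mitosis was higher in HT-22. The replication list gave 30 of 30 with a median of 4.54, and the mitosis list 34 of 34 with a median of 5.04. Both counts were the same without replicate 4, with protein-coding scaling and with median-of-ratios scaling. The summed level of the mitosis genes was 2396 to 2740 TPM in HT-22 and 35.4 to 73.4 TPM in WT. Mki67, the Ki-67 antigen of cycling cells (ENSMUSG00000031004, chr7:135689784-135716361), had 116, 128, 130.1 and 85.9 TPM in replicates 1 to 4 and 0.591, 0.838 and 1.35 TPM as the lowest, median and highest in WT. Top2a, the topoisomerase that untangles replicated DNA (ENSMUSG00000020914, chr11:98992943-99024189), had 403, 464, 484 and 493 TPM against 0.0841, 0.335 and 2.32 TPM. The 4 cultures lay close together for both genes and far above every mouse, with differences of 5.92 (SE 0.14, adjusted p = 7e-13) and 8.11 (SE 0.14, adjusted p = 3.7e-14). Ccnb1 (cyclin B1) had 47.1, 41.1, 35.1 and 48.7 TPM against 0, 0 and 0.206 TPM, a difference of 5.38 (SE 0.14). The spindle kinesin Kif2c had 47.0 ± 7.45 TPM and was listed at 0 in all 8 WT libraries. The replicative helicase subunits Mcm2 to Mcm7 had means of 86.6 to 143 TPM in HT-22 and 1.16 to 7.93 TPM in WT. Pcna, the sliding clamp that is also used in repair, had the highest WT level of the replication list, 23.7 ± 4.68 TPM, against 227 ± 22.3 TPM in HT-22. The licensing factor Cdc6 was at 24.8 ± 4.204 against 0.0821 ± 0.0609 TPM, and the thymidine kinase Tk1, an enzyme of the S phase, at 104 ± 27.3 against 0.566 ± 0.273 TPM.

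Replication and mitosis genes are known to be switched on by different promoter elements, E2F sites for the former and the CHR element, often with CCAAT boxes, for the latter. RefSeq promoters of 300 bases, from 250 before to 50 after the start (GRCm38.p6), were searched on both strands for TTTCCCGC or TTTGGCGC (E2F), TTTGAA (CHR) and CCAAT, none of which contains another. Promoters were found for 25 of 31 replication genes and 27 of 34 mitosis genes. Shares are of genes, and a gene counts where any of its promoters held the string. An E2F string was in 10 of 25 replication genes (40%) and 1 of 27 mitosis genes. It was in 0 of 61 genes of the pan-neuronal, vesicle and channel lists and in 3.29% of tested genes with a promoter. The CHR string was in 20 of 27 mitosis genes (74.1%), 4 of 25 replication genes, 13 of 61 neuronal genes and 14% of tested genes. CCAAT was in 22 of 27 mitosis genes (81.5%), 15 of 25 replication genes (60%) and 22 of 61 neuronal genes (36.1%), against 43.2% of tested genes. Over all 27025 genes with a promoter the shares were 1.8%, 20.2% and 41.1%. Over their 32851 single promoters they were 1.56%, 17.9% and 37.4%. A match is a description, not a site or a cause. Windows are shown 5′ to 3′ for 3 genes with an E2F string and 3 with a CHR string, with the string, or its reverse complement, in capitals. They lie at chr8:75109335-75109392, plus strand (Mcm5), chr1:128359720-128359777, minus strand (Mcm6), chr11:98907988-98908045, plus strand (Cdc6), chr4:118437344-118437386, minus strand (Cdc20), chr10:69352913-69352952, minus strand (Cdk1) and chr11:99024190-99024237, minus strand (Top2a).
Mcm5: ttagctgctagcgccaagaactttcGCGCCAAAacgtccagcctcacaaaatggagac
Mcm6: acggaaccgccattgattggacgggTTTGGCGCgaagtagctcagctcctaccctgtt
Cdc6: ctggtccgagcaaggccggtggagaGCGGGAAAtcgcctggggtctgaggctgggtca
Cdc20: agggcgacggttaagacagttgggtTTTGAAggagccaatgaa
Cdk1: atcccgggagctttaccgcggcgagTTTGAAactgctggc
Top2a: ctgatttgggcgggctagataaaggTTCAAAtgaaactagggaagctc
Of the genes beside these windows, Mcm5 had 96.0 ± 19.7 against 1.16 ± 0.420 TPM, Cdc20, the activator of the anaphase complex, 90.1 ± 15.6 against 0.105 ± 0.124 TPM, and the mitotic kinase Cdk1 57.5 ± 1.56 against 0.0877 ± 0.189 TPM.

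Genes that gate entry into the cycle were more mixed. Of 26 tested, 17 were higher, 2 lower, 2 kept and 5 not called, and 16 and 13 were higher with protein-coding and median-of-ratios scaling. The kinases Cdk4, with 335 ± 68.4 against 17.6 ± 3.07 TPM, and Cdk2, with 47.9 ± 11.3 against 0.608 ± 0.261, and the factor E2f1, with 52.4 ± 7.94 against 1.87 ± 0.515, were higher. So were inhibitors of the cycle: Cdkn2c (p18) had 83.5 ± 6.36 against 0.894 ± 0.593 TPM and the p53 target Cdkn1a (p21) had 43.6, 34.6, 46.7 and 149 TPM in replicates 1 to 4, highest in replicate 4, against 2.56 ± 2.16 TPM. Trp53 itself had 104 ± 27.0 against 6.59 ± 2.54 TPM, a difference of 3.76 (SE 0.18, adjusted p = 5.1e-09). Rb1, the retinoblastoma gene, was kept at 16.5 ± 3.45 and 17.6 ± 3.52 TPM, and its relative Rbl1 (p107) was higher at 42.3 ± 9.16 against 0.474 ± 0.212 TPM. Cdkn1c (p57) and Mycn were listed at 0 in the line. The D cyclin Ccnd1 was not called. It had 9.82, 9.84, 17.4 and 74.1 TPM in replicates 1 to 4 against 12.8 ± 2.69 TPM in WT, and its difference was 0.53 with replicate 4 and -0.11 without. Myc was higher, with 44.5, 40.8, 50.2 and 165 TPM against 2.25 ± 0.626 TPM and a difference of 4.27, or 3.81 without replicate 4. Synthesis of nucleotides, serine and one-carbon units gave 18 of 22 higher and none lower. The count fell to 15 without replicate 4, where Psph, Mthfd1 and Gart lost their calls (differences of 1.29, 1.27 and 1.19), to 13 with protein-coding scaling and to 9 with median of ratios. Shmt2, a mitochondrial serine enzyme, had 99.0 ± 50.3 against 5.81 ± 1.83 TPM, and Psat1, of serine synthesis, 253 ± 68.3 against 36.7 ± 7.80 TPM.

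Extracellular matrix genes were far above the tissue. Of 30 tested members of the fibroblast and matrix list, 27 were higher and 3 lower (26 and 23 higher with protein-coding and median-of-ratios scaling), with a median of 5.28, and their summed level was 7369 to 13625 TPM in HT-22 against 164 to 318 TPM in WT. Col1a1, a chain of fibrillar collagen I (ENSMUSG00000001506, chr11:94936224-94953042), had 704, 591, 953 and 1349.8 TPM in replicates 1 to 4 and 0.808, 2.05 and 5.36 TPM in WT. Col1a2, its partner chain, had 1426, 1263, 1747 and 2125 TPM against 2.02, 3.76 and 6.19 TPM. Lox, the lysyl oxidase that cross-links collagen, had 1236, 1435, 1732 and 1733 TPM against 0, 0.130 and 0.191 TPM. All cultures lay above all mice for the 3 genes, with differences of 7.99 (SE 0.23, adjusted p = 4e-12), 8.36 (SE 0.19, adjusted p = 5.1e-13) and 10.40 (SE 0.12, adjusted p = 6.9e-15). The Lox level in WT was near 0 in every mouse, so its difference depends on the pseudocount. Fibronectin Fn1 had 755 ± 33.2 against 9.85 ± 3.56 TPM, the collagen chaperone Serpinh1 447 ± 115 against 6.72 ± 2.47 and the metalloprotease Mmp14 275 ± 61.4 against 5.14 ± 1.69. The matrix glycoprotein Thbs1 was higher with and without replicate 4, with a difference of 7.46 or 6.65. The 3 lower members were the small proteoglycans Dcn, with 4.61 ± 2.17 against 24.03 ± 5.52 TPM, and Lum, listed at 0, and the collagen Col12a1, with 0.0535 ± 0.0647 against 2.11 ± 0.688 TPM.

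Of 40 tested mesenchymal cytoskeleton and transcription genes, 29 were higher, 3 lower, 3 kept and 5 not called, with a median of 3.76. With protein-coding and median-of-ratios scaling 27 and 24 were higher. S100a4, a calcium-binding protein of fibroblasts and motile cells (ENSMUSG00000001020, chr3:90603771-90606045), had 2281, 1471, 2127 and 2018 TPM in HT-22 replicates 1 to 4 and 0, 0.577 and 2.998 TPM in WT, with no overlap and a difference of 10.22 (SE 0.34, adjusted p = 3.8e-11). The intermediate filament Vim had 548, 459, 657 and 975 TPM against 9.22, 11.9 and 17.7 TPM, a difference of 5.55 (SE 0.19). The galectin Lgals1 had 1089 ± 241 against 7.49 ± 1.13 TPM and the annexin Anxa1 318 ± 117 against 0.795 ± 0.780 TPM. Transcription factors of mesenchyme were among the higher members: Twist1, Twist2, Snai2, Prrx1 and Runx1 had HT-22 means of 24.2 to 54.8 TPM and WT means of at most 2.51 TPM. The smooth muscle genes did not follow. Tagln was kept at 1.08 ± 0.305 and 1.51 ± 0.939 TPM, Myl9 was listed at 0 in HT-22, and Acta2 had 2.51, 3.93, 3.61 and 46.9 TPM, high only in replicate 4, and was not called. Thy1 and Cdh11 were lower. N-cadherin Cdh2 and Zeb1, used by both neural and mesenchymal cells, were kept at 41.6 and 42.2 TPM against 32.3 and 36.2.

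Of 19 genes of the YAP/TAZ and TGF-beta pathways, 15 were higher and 1 lower, with a median of 3.23 (15 higher, 2 lower and 2.88 without replicate 4, and 13 and 12 higher with protein-coding and median-of-ratios scaling). YAP and TAZ are coactivators that enter the nucleus of spread, stretched cells and act through TEAD factors. The coactivators Yap1 and Wwtr1 had 51.5 ± 2.05 and 42.2 ± 2.82 TPM against 7.67 ± 1.98 and 4.62 ± 1.13. All 4 TEAD genes were higher, from Tead4 at 11.1 ± 1.40 against 0.0539 ± 0.0792 TPM to Tead1 at 73.5 ± 16.2 against 6.93 ± 2.32 TPM. The target Ankrd1 had 80.9, 91.2, 92.5 and 231 TPM in replicates 1 to 4 and was listed at 0 in all 8 WT libraries. The targets Cyr61 and Ctgf had 165, 139, 168 and 2296 TPM and 38.2, 32.3, 43.4 and 765 TPM in the cultures, with replicate 4 far above the rest, against 2.19 ± 1.05 and 6.82 ± 3.23 TPM in WT. Their differences were 6.61 and 3.44 with it and 5.65 and 2.36 without. The ligand Tgfb2 was lower, at 0.943 ± 0.611 against 13.03 ± 4.62 TPM, and Tgfb1 higher, at 7.43 ± 0.738 against 2.13 ± 0.540 TPM. The TEAD string GGAATG, on either strand, was in promoters of 8 of 13 genes of the list (61.5%) and 12 of 61 neuronal genes. It was in promoters of 14.6% of tested genes and 16.6% of all genes with a promoter. The promoter window of Ankrd1, at chr19:36119937-36119992, minus strand (GRCm38.p6, RefSeq), is shown with the string in capitals.
Ankrd1: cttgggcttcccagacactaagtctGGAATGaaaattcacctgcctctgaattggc
The window ends upstream of the start, and the match is again only a description of its letters.

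**Figure D4:**
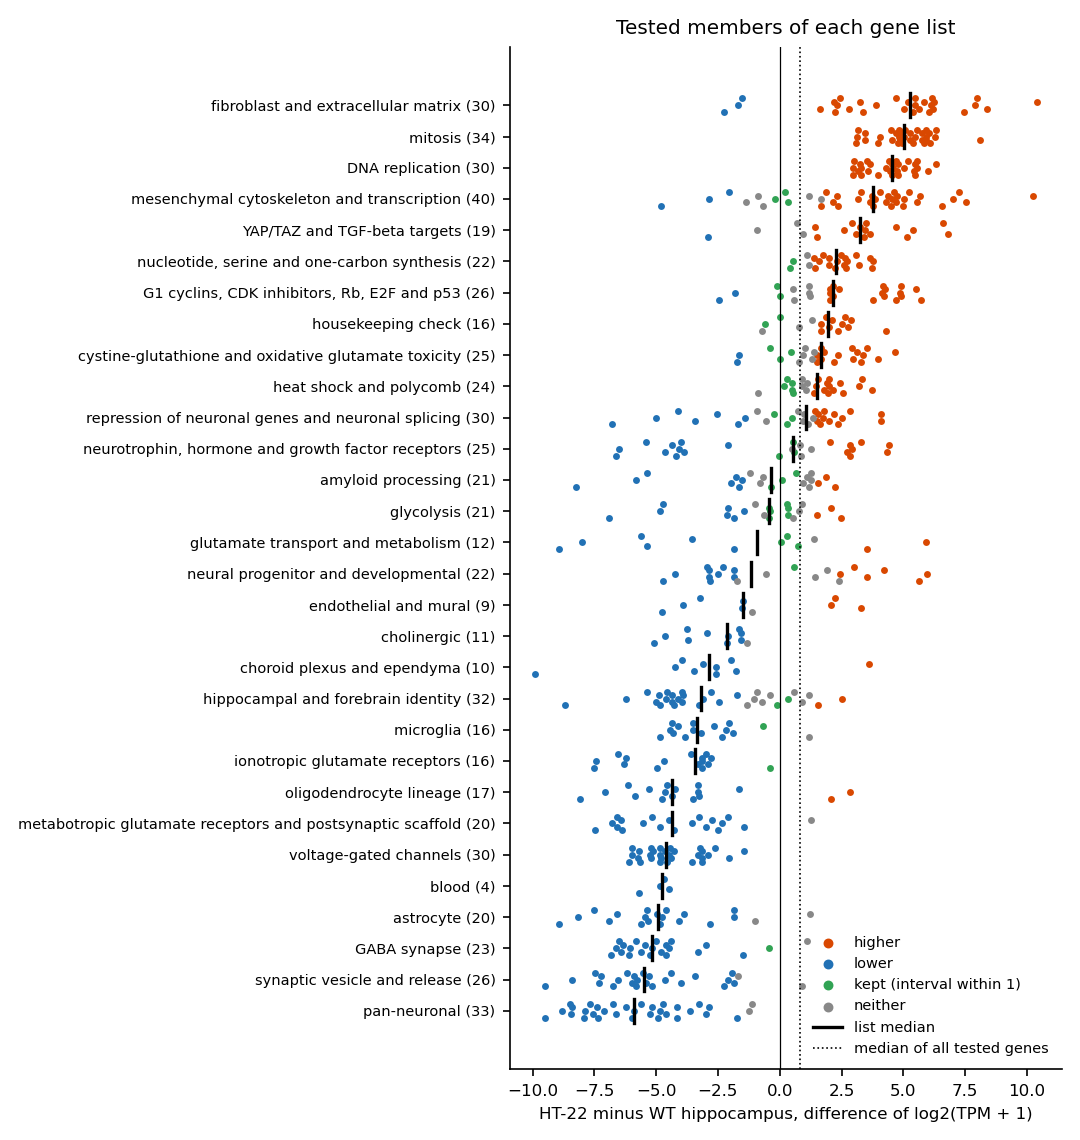
Difference in log2(TPM + 1), HT-22 minus WT hippocampus, for each tested member of the gene lists with 4 or more tested members (points, coloured by call; number tested in brackets), with list medians as bars and the median of all tested genes, 0.80, as a dotted line. Neuronal, synaptic and glial lists lie to the left, and matrix, mitosis and replication lists to the right.

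Genes that hold neuronal programmes off in other tissues were examined next. Rest, the repressor that silences neuronal genes by binding the RE1 element, had 47.7, 47.6, 49.7 and 68.5 TPM in HT-22 replicates 1 to 4 and 1.40, 1.99 and 2.75 TPM in WT. All 4 cultures were above all 8 mice, with a difference of 4.10 (SE 0.15, adjusted p = 1.4e-10). Its corepressor Rcor1 was higher at 26.7 ± 3.33 against 5.06 ± 1.56 TPM, and Hdac1 at 73.3 ± 17.9 against 12.8 ± 2.73 TPM. The list of repression and splicing genes as a whole gave 13 of 30 higher, 7 lower, 3 kept and 7 not called, and 7 higher with protein-coding scaling and 5 with median of ratios. Rest remained higher in both. The first part of the RE1 consensus, TTCAGCACC, was in promoters of 4 of 61 pan-neuronal, vesicle and channel genes (6.56%), on either strand. It was in promoters of 0 of 25 replication genes, in 0.486% of tested genes with a promoter and in 0.371% of all promoters. The second part of the consensus was searched too, and was in 1 of the 61 neuronal genes (1.64%) and 1 of 25 replication genes (4%). Its shares were 0.305% of tested genes and 0.137% of all promoters. The higher share in neuronal than in replication genes was thus seen for the first part only. REST also binds far from promoters, which this search does not reach. In Nsg2, a vesicular protein of neurons listed at 0 in HT-22 and at 235 ± 56.4 TPM in WT, the match was to the first part. Its window lies at chr11:32000474-32000532, plus strand (GRCm38.p6, RefSeq), with the string in capitals.
Nsg2: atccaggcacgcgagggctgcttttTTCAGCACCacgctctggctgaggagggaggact
Splicing and chromatin factors split between neuronal and general forms. The repressor of neuronal exons Ptbp1 was higher, at 227 ± 35.9 against 12.4 ± 3.61 TPM, while its neuronal relative Ptbp2 was kept at 76.2 ± 3.11 and 62.9 ± 8.49 TPM. Rbfox1 and Srrm3, which promote neuronal splicing, were listed at 0, and Nova2 was lower at 1.22 ± 0.302 against 22.6 ± 7.58 TPM. Nova1 was kept at 10.5 ± 1.72 and 12.4 ± 2.54 TPM. Of the chromatin remodeller BAF, the neuronal subunit Actl6b was listed at 0 and its progenitor counterpart Actl6a had 51.9 ± 7.996 against 6.36 ± 1.38 TPM.

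Ratios between paired genes of a family were taken within each library, as log2 of (TPM + 1). With that pseudocount they still depend on scaling where a gene is near 0, and they were not recomputed under the scalings. Of 23 such pairs, mostly a neuronal or adult form over a general one, 21 had a lower ratio in HT-22 with no overlap between the 4 and 8 libraries, 1 had a higher ratio with no overlap, and 1 overlapped. Pairs were tested by a two-sided exact permutation test over all arrangements of the 12 libraries, whose smallest possible p is 0.00202. The 22 pairs without overlap reached it, with an adjusted p of 0.00211 over the 23 pairs. Groups that do not overlap form the most extreme arrangement, so this p restates the lack of overlap and adds no support. Some pairs also hold a gene already given above as listed at 0 in HT-22, such as Snap25 and Actl6b. The order of the 2 genes was reversed in every library for 14 pairs. The ratio Snap25/Snap23 was -5.08 ± 0.14 in HT-22 and 6.31 ± 0.22 in WT hippocampus. For Tubb3/Tubb6, of the beta tubulins, it was -4.66 ± 0.17 in HT-22 and 4.51 ± 0.36 in WT hippocampus. In both, all HT-22 libraries favoured the general form and all WT libraries the neuronal one. The same held for Ptbp2/Ptbp1, with -1.55 ± 0.25 in HT-22 and 2.29 ± 0.33 in WT hippocampus. It also held for Actl6b/Actl6a, with -5.71 ± 0.23 in HT-22 and 2.07 ± 0.32 in WT hippocampus. The order was reversed too for the polycomb methyltransferases Ezh1/Ezh2, with -1.73 ± 0.45 in HT-22 and 1.46 ± 0.34 in WT hippocampus. There Ezh1 was not lower in HT-22, with means of 32.3 TPM against 20.7, while Ezh2 had 105 against 6.99. Vamp2/Vamp3 shrank without reversing, with 0.55 ± 0.20 in HT-22 and 4.32 ± 0.27 in WT hippocampus. The D cyclins Ccnd2/Ccnd1 overlapped, with 1.44 ± 0.89 in HT-22 and 0.77 ± 0.27 in WT hippocampus and an exact permutation p of 0.069.

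**Figure D5:**
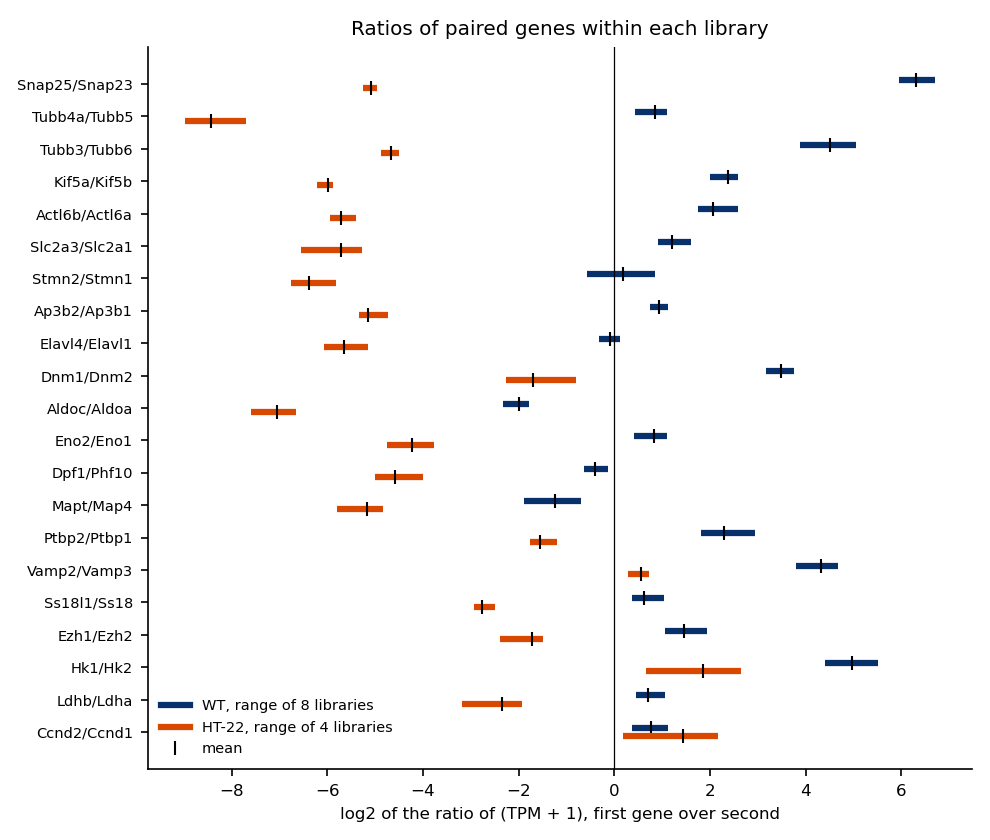
Log2 ratio of (TPM + 1) of 21 of the 23 pairs of related genes within each library, with bars for the range over the 8 WT (blue) and 4 HT-22 (orange) libraries and ticks for the means, ordered by the difference between groups. The bars are apart for all pairs drawn but Ccnd2/Ccnd1, and in each of those that are apart the HT-22 bar lies to the left.

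Of 21 tested glycolysis genes, 3 were higher (2 without replicate 4), 7 lower, 6 kept and 5 not called. With protein-coding scaling 2 were higher and 8 lower, and with median of ratios none was higher and 12 were lower. The glucose transporter of neurons Slc2a3 was listed at 0 and had 27.9 ± 7.73 TPM in WT, while Slc2a1 was higher at 54.8 ± 25.7 against 11.4 ± 3.20 TPM. Enolase Eno2, of neurons, was lower at 6.67 ± 1.63 against 197 ± 46.8 TPM, and Eno1 was kept at 147 ± 50.2 and 108 ± 20.04 TPM. Astrocytic aldolase Aldoc was at 0.464 ± 0.444 against 168 ± 31.03 TPM. The lactate dehydrogenase subunit Ldhb was lower at 35.2 ± 6.38 against 155 ± 14.5 TPM, and Ldha, at 192 ± 81.7 and 94.6 ± 15.7 TPM, was not called. The monocarboxylate carrier Slc16a1 was higher with all 4 cultures, by 1.52, and not called without replicate 4, at 1.22.

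Several markers of neural progenitors were also at 0 in the line. Of 22 tested progenitor and developmental genes, 6 were higher, 10 lower (11 without replicate 4), 1 kept and 5 not called. Sox1, Sox2, Sox11, Hes5 and the radial glia lipid carrier Fabp7 were listed at 0 in all 4 HT-22 libraries, where WT had 17.8 ± 2.56 TPM for Sox2 and 24.96 ± 5.19 TPM for Fabp7. Nes (nestin) did not reach the level for the test. The RNA-binding proteins Igf2bp1 and Igf2bp2, of embryonic and transformed cells, were higher, at 49.2 ± 5.12 and 65.1 ± 4.42 TPM against 0.0105 ± 0.0157 and 0.0692 ± 0.115, and the chromatin protein Hmga2 had 10.3, 12.5, 10.5 and 71.6 TPM in replicates 1 to 4 against 0.0211 ± 0.0409 TPM. Hes1, a Notch target, had 0.289, 0, 0 and 10.9 TPM in the cultures. It was nearly absent from 3 and present in replicate 4, was not called with all 4 and was called lower without that library.

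Receptors through which the line could be addressed differed from those of the tissue. Of 25 tested, 8 were higher, 10 lower, 3 kept and 4 not called. The neurotrophin receptors Ntrk2 (TrkB) and Ntrk3 (TrkC) were listed at 0, where WT had 98.0 ± 28.8 and 42.1 ± 12.02 TPM. The ligand Bdnf was kept, with 7.96, 8.14, 9.27 and 17.6 TPM in replicates 1 to 4 against 6.61, 8.91 and 15.6 TPM as the lowest, median and highest in WT. The glucocorticoid receptor Nr3c1 was kept at 44.4 ± 6.92 and 28.8 ± 6.45 TPM, while the mineralocorticoid receptor Nr3c2, abundant in hippocampal neurons, was lower at 1.29 ± 0.361 against 34.7 ± 5.34 TPM. The receptor Met had 55.0 ± 7.69 against 1.78 ± 0.771 TPM, Erbb2 32.0 ± 7.14 against 0.493 ± 0.447 and the interleukin receptor subunit Il6st 123 ± 25.9 against 15 ± 2.97, and all 3 were higher.

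The series treats this line with amyloid peptides and with an LNA against Hsf1, so genes of both pathways are given. Of 21 amyloid processing genes, 3 were higher (4 without replicate 4), 7 lower, 3 kept and 8 not called. With protein-coding scaling 2 were higher and 9 lower, and with median of ratios 1 and 10. App had 79.8, 115, 127 and 80.2 TPM in replicates 1 to 4 and 157, 209 and 309 TPM in WT, lower in every culture than in any mouse, but its difference of -1.22 (SE 0.16) was not called. Its relative Aplp1, of neurons, was listed at 0 and had 296 ± 77.5 TPM in WT, and Aplp2 was kept at 163 ± 36.9 and 201 ± 58.0 TPM. The sorting receptor Sorl1 was listed at 0 with 55.8 ± 19.6 TPM in WT, Apoe was lower at 6.92 ± 1.73 against 329 ± 87.2 TPM, and the prion protein Prnp, which binds amyloid oligomers, was lower at 72.1 ± 8.24 against 279 ± 59.8 TPM. The beta secretase Bace1, at 13 ± 1.43 and 22.9 ± 8.04 TPM, was not called. Of 24 heat shock and polycomb genes, 14 were higher and none lower (13 higher without replicate 4, 7 with protein-coding scaling and 5 with median of ratios). Hsf1 had 54.0, 42.9, 70.6 and 58.9 TPM against 7.63, 10.2 and 18.2 TPM, a difference of 2.15 (SE 0.17, adjusted p = 2.5e-05) that was not called under median-of-ratios scaling. The polycomb methyltransferase Ezh2 had 105 ± 8.84 against 6.99 ± 2.44 TPM, a difference of 3.73 (SE 0.16), and Hsp90aa1 and Dnaja1 were kept. Of 16 housekeeping genes, 11 were higher (10 without replicate 4) and none lower, with a median of 1.93; with protein-coding scaling 7 were higher and 2 lower. Eif4a2 was kept at 145 ± 16.2 and 146 ± 33.7 TPM. The values of Gapdh and of ribosomal protein genes are uncertain, because processed copies share their reads.

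Over the whole table, the 15 protein-coding genes with the largest higher difference, at 10 TPM or more and with no overlap, were Lox, S100a4, Col1a2, Top2a, Col1a1, Col3a1, Ptx3, Anxa1, Thbs1, AC154187.2, S100a11, Lgals1, Ulbp1, Slfn9 and Ankrd1. Their differences ran from 10.40 to 6.82. Ulbp1, a stress ligand of natural killer cells, had 132 ± 22.4 TPM against 0.0396 ± 0.0277, and the pentraxin Ptx3 had 187, 184, 250.1 and 757 TPM in replicates 1 to 4 against 0.380 ± 0.186 TPM. The 15 with the largest lower difference included Ttr, Snap25, Atp1b1, Gpm6a, Slc1a2, Sparcl1, Hpca, Camk2a, Ptgds, Olfm1, Nrgn, Mt3, Syt1 and Enpp2, with differences from -9.89 to -8.32. They mix neuronal genes, such as the hippocampal calcium sensor Hpca, with genes of astrocytes, such as Sparcl1 and Mt3, and of choroid plexus, such as Ttr and Enpp2. Hpca was listed at 0 in all 4 cultures and had 280.2, 407 and 661 TPM as the lowest, median and highest in WT. Among the most abundant protein-coding messages, S100a4, Col1a2 and Lox ranked 2, 5 and 7 in HT-22, at 1974, 1640.2 and 1534 TPM, and Ttr, Snap25 and Atp1b1 ranked 2, 5 and 9 in WT, at 977, 727 and 606 TPM. Fth1 was among the genes in the first 15 of both.

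Other treatments of the line gave values of the same kind. The 4 HT-22 libraries with amyloid beta 42 in place of the reverse peptide, set against the same 8 WT libraries, gave 6413 genes higher (33.9%) and 3274 lower (17.3%). Within the lists they gave 32 of 33 pan-neuronal genes lower, 30 of 30 replication and 34 of 34 mitosis genes higher, and 27 of 31 matrix genes higher. The 3 libraries with the reverse peptide and the anti-Hsf1 LNA at 150 nM gave 6068 higher and 3306 lower. Since these comparisons share their WT libraries with the one above, they are given side by side only.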

How the data were processed

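Long RNA was measured after ribosomal RNA depletion in 4 HT-22 libraries and 8 WT hippocampus libraries. Per the series' design text, the former are biological replicates and the latter 1 mouse each; whether the cultures were grown on separate days is not stated, so p-values measure the spread between these samples. The submitters' processing notes name FastQC, cutadapt 1.18, BWA 0.7.17, HISAT2 2.1.0, bedtools 2.26.0 and StringTie 1.3.4d and the builds mm10 and GRCm38, with no role for each. Per the file headers, each deposited table lists genes with their coverage, their FPKM and their TPM. Deposited TPM has the same sum in every library; the deposited FPKM is a fixed multiple of it and was used, with the deposited coverage signal, only for relative depth. No counts were used.

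TPM was summed per gene identifier (53975; 4184 on X or Y were dropped) and tested as log2(TPM + 1) with limma 3.58.1 in R 4.3.3: 4 group means, trend and robust moderation, its treat test against a log2 difference of 1, and Benjamini-Hochberg adjustment over 18768 genes, with an average of the 2 group means of at least 1 TPM. Scripts were tested on simulated data. Python 3.11.15 and pandas 2.3.3 served for tables. Biotypes came from GENCODE M21. Alternatives were protein-coding, median-of-ratios, TMM and quantile scaling, pseudocounts 0.1 and 0.5, no filter or 5 TPM, 2 groups, array weights, the replicate block, the ordinary moderated test, each WT age, the other HT-22 treatments and leaving out each library. Because the values are TPM and depth enters no fit, zeros in shallow libraries limit low levels.

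The members and gene lists were chosen with earlier results of these data known. Named genes were those of each list with the highest mean level in the group where they were higher, among called and among kept or oppositely called members, the genes of all pairs, the 15 largest differences in each direction with at least 10 TPM and no overlap, and members that an account of a list needed. For each list, genes whose members are unmatched, on X or Y, or below the level for the test are not counted as tested. Some genes are not reported here.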

Additional observations from a re-analysis of the deposited data

Results flagged for a closer look

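Of 254 genes named, 26 had 1 HT-22 culture far from the other 3, by the gap to the nearest culture over the whole range of log2(TPM + 1). Chance alone places about 1 in 20 groups of 4 there, and 23 of these genes had replicate 4 as the distant culture. It was the highest for most. Among targets of YAP and of serum, Cyr61 had 2296 TPM in it against 139 to 168 in the others, Ctgf 765 against 32.3 to 43.4, Ankrd1 231 against 80.9 to 92.5 and Myc 165 against 40.8 to 50.2. Matrix and cytoskeleton genes showed the same: Thbs1 had 1996 against 180.3 to 251.3 TPM, Acta2 46.9 against 2.51 to 3.93, Anxa1 493 against 248 to 277 and Fn1, with a narrow spread, 805 against 736 to 744. Of redox and amino acid genes, Hmox1 had 377 against 55.3 to 61.8 TPM, Txnrd1 368 against 119.6 to 144, Chac1 99.1 against 14.7 to 17.4, Nfe2l2 106 against 49.7 to 53.03, Slc3a2 323 against 99.7 to 116, Slc7a11 7.66 against 2.72 to 3.15 and Slc16a1 57.9 against 23.6 to 27.1.

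Replicate 4 was also the highest culture for the regulators Hmga2 with 71.6 against 10.3 to 12.5 TPM, Sox9 with 69.1 against 23.95 to 27.5, Rest with 68.5 against 47.6 to 49.7, Gata4 with 13.4 against 10.3 to 10.7 and Hes1 with 10.9 against 0 to 0.289. It was the lowest for Hoxc6, with 10.6 against 38.9 to 44.6 TPM, for Mmp14, with 184 against 295 to 320.2, and for Rbl1, with 28.7 against 45.1 to 48.3. The labels give it the same treatment as the other 3 cultures. In the 3 remaining genes another culture was distant: Eif4a2 was low in replicate 1, with 121 against 151 to 156 TPM, Tead1 was low in replicate 2, with 49.5 against 78.4 to 85.1, and Nr3c2 was high in replicate 3, with 1.82 against 1.04 to 1.15.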

How the results depend on the processing

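Among 675 tested genes of the lists, pairs and largest differences, and 23 ratios, no called one changed direction under any alternative that gave it a value. With median of ratios or TMM, 65 of 674 genes lost their call. The counts of lower pan-neuronal, astrocyte and oligodendrocyte genes and of higher replication and mitosis genes stayed within 1.5 times of those reported under each alternative; lower microglia genes were 8 in place of 14 with a filter of 5 TPM, under which fewer genes were tested. Counts over all genes depended on scaling. With median of ratios, TMM and quantile scaling 2245, 2234 and 3487 genes were higher and 5894, 5861 and 5457 kept. With the first 2 of these 174 and 178 were gained. Protein-coding scaling gave 5302 lower and 3460 lacked, but over 22953 tested genes in place of 18768. Over the 18768 genes it gave 4043 lower. The cause of the dependence on scaling was not tested. The ordinary moderated test, with no minimum difference, called 11222 higher. With a filter of 5 TPM there were 1693 lower, 829 lacked and 74 gained, and with no filter 470 gained. With WT of 3, 6 or 12 months alone 490, 505 and 454 genes were gained, and with 6 months alone 2332 were kept.

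Leaving out each library in turn gave 5187 to 5827 genes higher, 3256 to 3376 lower, 3171 to 3548 kept, 2081 to 2204 lacked and 273 to 311 gained, and the same counts as reported for pan-neuronal, glial, replication and mitosis genes. Of 232 genes named with a test, 225 had the same call without any single library; the other 7 are Gart, Psph, Slc3a2, Hes1, Krt18, Mthfd1 and Slc16a1. Gart and Psph lost their calls without any of 8 and 9 libraries, with differences down to 1.19 and 1.29. The ratio Ccnd2/Ccnd1, not called with all libraries, was called without HT-22 replicate 4. With the replicate number as a block, 5761 genes were higher and 3349 lower. The 15 same-numbered pairs of libraries correlated in their deviations at -0.143 to 0.0495, none over 0.1, so the numbers give no pairing. Depth is known only in relative terms, and the 3 shallower HT-22 libraries limit what a level near 0 can show.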

Other observations

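Genes that give a cell its position along the body axis were not in any list and were chosen after their values were seen. Hox genes are silent in the forebrain, to which the hippocampus belongs, and mark hindbrain, spinal cord and trunk. Of 39 Hox genes in the table, 18 had at least 1 TPM in HT-22, and none did in WT, where the highest single library had 0.181 TPM. The 18 entered the test through their HT-22 level alone, so no call is given. The genes on in HT-22 belonged to paralogue groups 1 to 9, with 18 of 27 at 1 TPM or more, and all 12 of groups 10 to 13 were listed at 0. Hoxd8 had 34.1, 29.3, 41.9 and 29.7 TPM in replicates 1 to 4, Hoxc6 38.9, 41.3, 44.6 and 10.6 TPM, Hoxa7 27.9, 27.0, 29.5 and 25.2 TPM and Hoxd9 24.5, 20.2, 27.0 and 16.2 TPM, and all 4 genes were listed at 0 in the 8 WT libraries. Hoxa9 was listed at 0 in every library, next to Hoxa7 in the same cluster. Other developmental factors were also present in the line and near 0 in the tissue. En1, of the midbrain boundary and limb, had 12.8, 12, 16.2 and 12.5 TPM and the heart and gonad factor Gata4 10.6, 10.3, 10.7 and 13.4 TPM, and both were listed at 0 in all 8 WT libraries.

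Long noncoding RNAs, imprinted genes and chemokines, also chosen after their values were seen, differed as widely. The noncoding RNAs Meg3, Rian and Mirg, which come from 1 imprinted region, were listed at 0 in all 4 HT-22 libraries and had 239 ± 90.8, 346 ± 82.8 and 16.8 ± 5.30 TPM in WT. Neat1, the scaffold of paraspeckles, was the reverse, with 333, 343, 421 and 273 TPM in replicates 1 to 4 against 7.28 ± 4.24 TPM and a difference of 5.54. The chemokine Ccl2 had 78.6, 63.0, 57.1 and 264 TPM and Cxcl1 34.5, 36.04, 35.9 and 35.3 TPM in the cultures, against 0.267 and 0.142 TPM in the highest mouse. Cxcl12 was lower, at 0.0493 ± 0.0985 against 5.30 ± 2.21 TPM. Mtap, an enzyme of methionine salvage, had 147, 149, 181 and 261 TPM against 3.19 ± 0.520 TPM, a difference of 5.43, while its neighbours Cdkn2a and Cdkn2b, the p16 and p15 inhibitors, were listed at 0 in all 4 cultures and had at most 0.241 and 0.495 TPM in WT. Whether the genome of the line differs there was not tested. By autosome, the median difference of tested protein-coding genes ran from 0.24 on chromosome 18 to 1.16 on chromosome 11, and it was -0.26 for the 13 mitochondrial genes, against 0.72 over all of them.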
